A study of Mus musculus with 2 samples.

Results

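Accessible chromatin was compared around the genes of 6 microRNAs of blood cells, Mir144, Mir451a, Mir142, Mir223, Mir150 and Mir155, with and without the chromatin remodelling subunit BRD9. Peaks of 1 control and 1 Brd9 knockout library were merged where they shared at least 1 bp, and every merged region that overlapped or lay within 30 kb of a listed microRNA gene was taken. This gave 23 of 29076 regions. Mir144 and Mir451a are neighbours and share their regions, so the 6 genes form 5 loci. The libraries were made by ATAC-seq, in which a transposase cuts open DNA, from 150000 sorted fetal liver cells each, taken from C57BL/6 mouse embryos at stage E14.5. The sort kept cells that lack mature lineage markers and carry c-Kit, among them the stem and progenitor cells of blood. The control (replicate 1) had the genotype CD45.2(+) Brd9fl/fl and the knockout (replicate 2) CD45.2(+) Vav1-iCre Brd9fl/fl, so both carried the floxed allele and only the knockout carried the Cre. Vav1-iCre is driven by regulatory DNA of Vav1, a gene of blood cells, and so acts mainly in blood cells. The number of embryos behind a library is unknown here.

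MicroRNAs are short RNAs cut from a hairpin in a longer transcript, by DROSHA in the nucleus and usually by DICER1 in the cytoplasm. Loaded into an Argonaute protein, they pair through their seed with messenger RNAs and lower their stability and translation. Each of the 6 is associated with blood: miR-144 and miR-451a come from 1 transcript that GATA1 drives in red cell precursors, miR-142 is made in nearly all blood cells, miR-223 in granulocytes and their precursors, miR-150 in mature lymphocytes, and miR-155 in activated lymphocytes and myeloid cells. miR-451a is exceptional in that AGO2 cuts its hairpin in place of DICER1.

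The mature sequences are shown because they are products of the loci compared here. They were taken from RefSeq (GRCm38.p6), in which all 6 genes had an entry, and the capitals mark the seed, bases 2 to 8.
miR-144-3p: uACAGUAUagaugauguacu
miR-451a: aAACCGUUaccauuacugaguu
miR-142a-5p: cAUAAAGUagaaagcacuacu
miR-142a-3p: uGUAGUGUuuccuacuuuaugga
miR-223-3p: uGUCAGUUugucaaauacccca
miR-150-3p: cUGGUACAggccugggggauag
miR-155-5p: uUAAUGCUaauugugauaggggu
The 10 mature sequences listed for these genes had 10 different seeds, and none of these seeds recurred among the other mature sequences of the table, which holds 1738. Arms of these genes outside these 10, miR-150-5p among them, were not analysed here.

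Chosen start sites near the hairpins were also examined, in RefSeq promoters of 300 bases (250 before to 50 after the start, GRCm38.p6, the assembly behind mm10). A pair of them belongs to noncoding RNAs that span a hairpin: Mir155hg holds Mir155, and F630028O10Rik holds Mir223. Eral1, within 30 kb of Mir144 and Mir451a, and Supt4a, within 30 kb of Mir142, have start sites that lie under a shared region. The motifs searched on both strands were AGATAA of GATA factors, TGTGGT of RUNX factors, CCGGAAG of ETS factors, TGANTCA of AP-1 and TTGCNNAA of C/EBP factors. Capitals mark the matches.
Mir155hg promoter, chr16:84712773-84713072, plus strand: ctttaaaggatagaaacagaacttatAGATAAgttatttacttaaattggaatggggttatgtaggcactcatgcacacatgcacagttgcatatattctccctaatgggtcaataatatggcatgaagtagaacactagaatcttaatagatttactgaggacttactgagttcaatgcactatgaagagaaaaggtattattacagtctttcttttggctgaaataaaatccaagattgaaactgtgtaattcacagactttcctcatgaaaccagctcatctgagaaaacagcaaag
F630028O10Rik promoter, chrX:96239676-96239975, plus strand: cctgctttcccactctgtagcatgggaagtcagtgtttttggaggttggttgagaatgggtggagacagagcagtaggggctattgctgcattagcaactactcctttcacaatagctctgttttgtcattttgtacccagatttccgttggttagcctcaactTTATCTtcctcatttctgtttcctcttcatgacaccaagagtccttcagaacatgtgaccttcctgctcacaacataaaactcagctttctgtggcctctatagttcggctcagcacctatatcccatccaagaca
Eral1 promoter, chr11:78080334-78080633, minus strand: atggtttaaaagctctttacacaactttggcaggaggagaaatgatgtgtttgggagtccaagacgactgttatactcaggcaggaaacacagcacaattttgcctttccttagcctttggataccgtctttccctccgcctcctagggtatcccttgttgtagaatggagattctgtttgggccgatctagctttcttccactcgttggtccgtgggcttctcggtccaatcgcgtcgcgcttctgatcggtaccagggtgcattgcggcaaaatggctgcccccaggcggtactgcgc
Supt4a promoter, chr11:87737301-87737600, plus strand: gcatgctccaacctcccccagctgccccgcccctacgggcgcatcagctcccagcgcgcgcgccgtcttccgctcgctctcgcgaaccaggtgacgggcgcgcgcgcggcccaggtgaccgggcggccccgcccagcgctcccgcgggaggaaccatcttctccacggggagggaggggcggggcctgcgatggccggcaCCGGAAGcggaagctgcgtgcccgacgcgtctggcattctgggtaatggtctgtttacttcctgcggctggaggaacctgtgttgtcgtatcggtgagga
Mir155hg held 1 GATA match, 224 bases before its start, and F630028O10Rik 1 GATA match, 86 bases before it. Supt4a held 1 ETS match, 50 bases before its start, and Eral1 held none of the motifs. Of all 32851 promoters, 11.2% held the GATA, 16.8% the RUNX, 8.86% the ETS, 7.81% the AP-1 and 10.8% the C/EBP motif, so single matches are common and describe the letters alone. Start sites of both noncoding RNAs lay outside every region. Their promoters had a GC content of 34.3% (Mir155hg) and 45.3% (F630028O10Rik), below the median of 52.7% over all promoters. The 7 start sites that did lie under a member region had promoters with 51.7% (Eral1) to 71.0% (Supt4a) GC.

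The control list held 25330 peaks and the knockout list 22348. Heights are given as summit reads, the number of extended reads over a peak's summit, which was recovered from the deposited fold and −log10 p. Total read numbers were not analysed here. The knockout library had 0.640 times the depth of the control by its lowest background, and a scaled ratio is knockout over control summit reads divided by 0.640. Its 95% interval is exact and covers counting error only; without molecular identifiers, reads cannot be taken as independent molecules. Each genotype had 1 library, so no replicate check or p-value was possible and every difference is one between 2 libraries. Brd9 itself had 217 control and 151 knockout reads at a gene end (1.09, 0.877 to 1.34), which checks neither label, since where its floxed part lies is unknown here. Sex-linked genes set the libraries apart: the Y-linked Ddx3y and Uty had peaks of 33 and 18 reads in the knockout and none in the control, and Xist had 86 control and 33 knockout reads (0.599, 0.388 to 0.905) at 1 region and 43 control reads at another without a knockout peak. Genotype, embryo and these differences cannot be told apart. Of 8 progenitor markers, 5 had a shared region within 1 kb of a gene end, Kit among them (109 and 65 reads), while Gata2, Cd34 and Ptprc had none. A region at a gene end was found for 1 of 7 mature lineage markers (Cd4, 9 reads, control), none of 3 macrophage markers, 1 of 4 hepatocyte markers (Apoa1, 26 and 19 reads) and 1 of 3 endothelial markers (Kdr, with 2 regions, the higher a knockout-only one of 17 reads). Ptprc was on both the progenitor and the mature lineage list and counts as absent in each.

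Of the 23 regions, 14 were shared by the lists, 5 were control-only and 4 were knockout-only. Over all regions 63.6% were shared, 23.4% control-only and 13.0% knockout-only. The corresponding shares at the microRNA loci were 60.9% (95% exact binomial interval 38.5 to 80.3), 21.7% (7.46 to 43.7) and 17.4% (4.95 to 38.8), which are near that background and no result about these loci. None of the 6 hairpins overlapped a region of either list. The gap from hairpin to nearest region was 128 bp for Mir155, 228 bp for Mir451a, 399 bp for Mir144, 1147 bp for Mir142 and 1710 bp for Mir223. Among 1225 microRNA gene spans of the gene table, 97 (7.92%) overlapped a region, the median gap was 12297 bp, and 65.8% had a region within 30 kb. Mir150 had 7 regions within 30 kb, Mir142 had 6, Mir144 and Mir451a had 5, Mir155 had 3 and Mir223 had 2. At least the 7 of Mir150 were found at 27 of the 1225 microRNA genes, and at least the 2 of Mir223 at 583 (47.6%). The median over all 1225 was 1 region within 30 kb, so each of these loci had more regions than the median. At the edge of the 30 kb window, the last region inside was 29253 bp from Mir150, with 45 and 36 reads, and the first outside was 30109 bp from Mir142, with 351 and 149 reads (scaled ratio 0.663, 0.544 to 0.805).

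**Figure D1:**
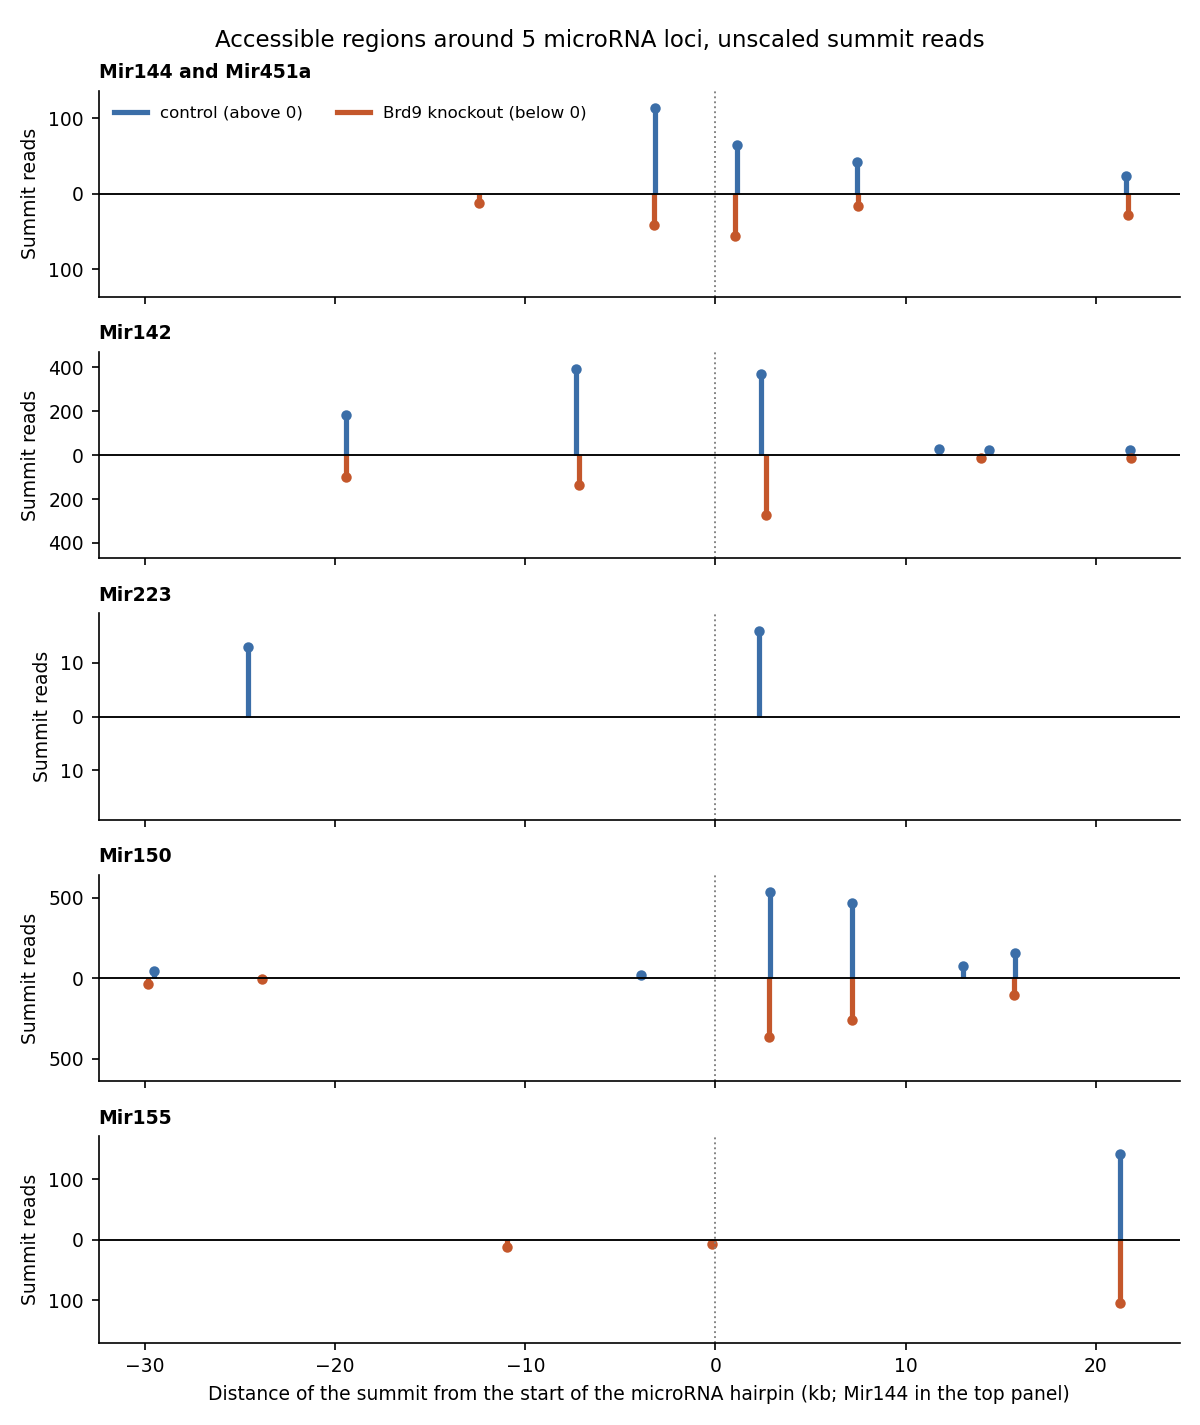
Summit reads (y axis, unscaled, control above 0 and Brd9 knockout below 0) against the distance in kb of each summit from the start of the hairpin (x axis), with 1 panel per locus and its own y scale. The highest summit at Mir142 has 392 control reads, and Mir223 has 2 control summits of 13 and 16 reads and none in the knockout.

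At Mir144 and Mir451a (chromosome 11, 78073005 to 78073070 and 78073170 to 78073241, plus strand; mm10, as are all coordinates) the region upstream of the hairpins was lower in the knockout. It lay 2650 bp upstream of Mir144, between genes (78069491 to 78070355), and counted 114 control and 42 knockout summit reads. The scaled ratio was 0.575 (0.394 to 0.826), and its peak was 865 bp wide in the control and 500 bp in the knockout. Of the 1228 shared regions with 102 to 126 control reads, 172 had an interval below 1 and 48 (3.91%), this region among them, a ratio this low. An upstream element bound by GATA1 has been described for this microRNA pair; whether this region is that element was not tested. On the other side of the hairpins, 228 bp beyond Mir451a and inside Eral1, a gene for a mitochondrial ribosome assembly GTPase, a second region (78073469 to 78075024) had 64 and 56 reads. Its scaled ratio of 1.37 had an interval that included 1 (0.937 to 1.99), and its peak was 983 bp wide in the control and 1556 bp in the knockout. In the control the upstream summit was thus the higher of the pair, with 1.78 times the reads of the downstream one, and in the knockout the lower, with 0.750 times. The ratio of these ratios, which needs no depth scaling, was 0.422 (0.246 to 0.719).

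Farther along the Mir144 and Mir451a locus, the region over the start site of Eral1 (78080161 to 78080938) had 42 and 16 reads and a scaled ratio of 0.595 with an interval that reached 1 (0.312 to 1.08). The region over a start site of Fam222b (78094068 to 78095291), 20827 bp beyond Mir451a, had 24 and 28 reads and was higher in the knockout by its scaled ratio of 1.82 (1.02 to 3.28). Of the 1586 shared regions with 21 to 27 control reads, 1506 (95%), this region among them, had a ratio as low or lower. A knockout-only region of 12 reads (6.20 to 21.0) stood 11875 bp upstream of Mir144 at an end of Flot2 (78060423 to 78061130). Of 3527 regions with 10 to 14 knockout reads, 36.0% were knockout-only. Scaled ratios within 1 locus therefore lay on both sides of 1. Among erythroid marker genes, Klf1 (0.939) and Epor (0.834) were shared at a gene end and had scaled ratios below 1, and the interval of Epor also lay below 1. Hbb-bs and Slc4a1 had control-only peaks of 50 and 62 reads at a gene end, and Gata1 had none in either. Of all regions with 40 to 54 control reads 10.5% were control-only, and of those with 55 to 74 control reads 4.76%. Their part in the result at Mir144 was not tested, and in bulk samples fewer cells of a type and less open chromatin per cell cannot be told apart.

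At Mir142 (chromosome 11, 87756864 to 87756927, plus strand) the region upstream of the hairpin was also lower in the knockout. This intergenic region, 6442 bp upstream (87748834 to 87750422), counted 392 control and 138 knockout summit reads, and the scaled ratio was 0.550 (0.449 to 0.669). Of the 375 shared regions with 352 to 432 control reads, 43 (11.5%) had an interval below 1 and 3, this region among them, a ratio this low. The region 1147 bp downstream of the hairpin, at one end of Tspoap1 (87758074 to 87760311), had 368 and 272 reads and a scaled ratio of 1.15 with an interval that included 1 (0.983 to 1.35). Summits on both sides of the hairpin were of about equal height in the control, 1.07 times, while in the knockout the upstream one had 0.507 times the downstream reads. The ratio of these ratios was 0.477 (0.368 to 0.616). These 2 pairs of regions were chosen after their values were seen.

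The surroundings of the upstream Mir142 region were lower too. The local background, the level of reads around a summit against which the peak caller set it, was 48.8 control and 16.7 knockout reads, or 0.535 when scaled, so the authors' deposited fold of the peak was nearly the same in both lists, 7.89 and 7.85, and a ratio of folds would be 0.995. At the downstream Mir142 region the local background was 84.6 and 57.1 reads, a scaled ratio of 1.05. At the upstream Mir144 region the background was 18.0 and 10.7 reads, a scaled ratio of 0.926, and the folds were 6.04 and 3.67, with a ratio of 0.608. The summit was thus lower relative to its surroundings at Mir144 and lower together with them at Mir142. The Fam222b region had a background of 2.35 and 2.11 reads, a scaled ratio of 1.40. Its folds were 7.46 and 9.32, with a ratio of 1.25. The median scaled ratio of the background over all shared regions was 0.938, with 0.623 and 1.34 as the 5th and 95th percentiles. How wide a stretch the background covers, and whether the region's own reads count in it, is unknown here.

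**Figure D2:**
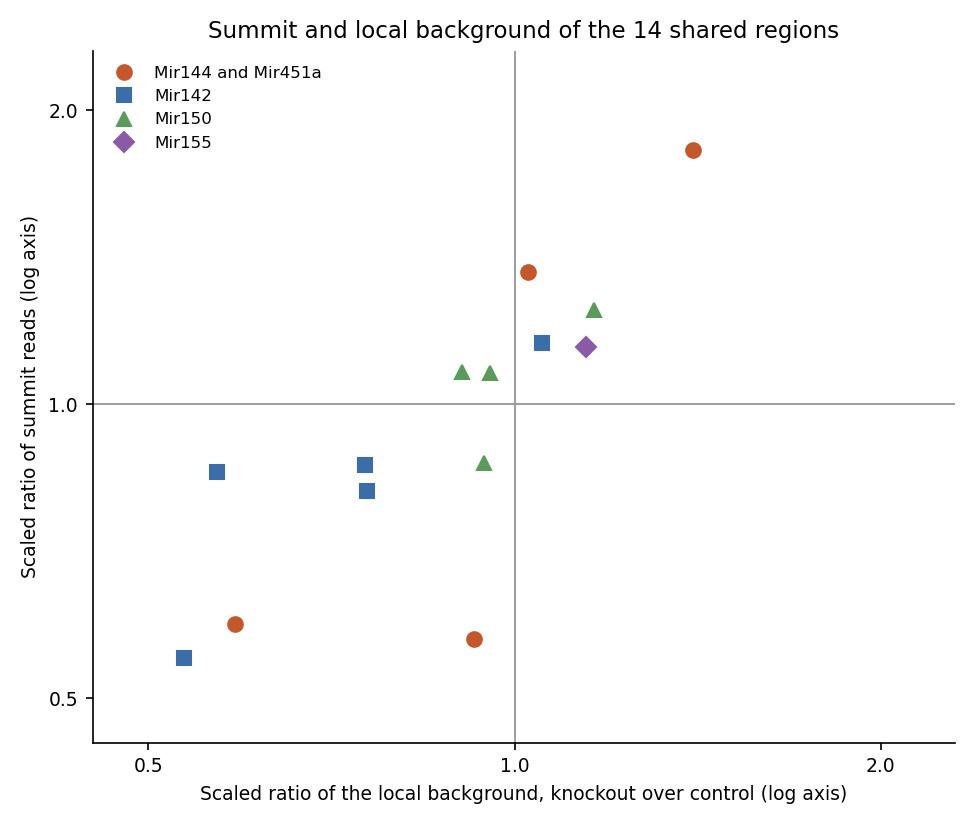
Scaled ratio, knockout over control, of summit reads (y axis, log) against that of the local background (x axis, log) for the 14 shared regions, 1 point per region, coloured by locus. The upstream Mir142 region is at the lower left (0.535 and 0.550), and the upstream Mir144 region is nearly as low on the y axis (0.575) but at 0.926 on the x axis.

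The remaining Mir142 regions had intervals that included 1 or were in 1 list. The region over the start site of Supt4a, an elongation factor gene, 19067 bp upstream (87736778 to 87737797), had 182 and 101 reads (0.867, 0.673 to 1.11), with summits 1 bp apart. Inside Tspoap1 a pair of weak shared regions, 13857 and 21469 bp downstream, had 23 and 12 reads (0.815, 0.369 to 1.71) and 22 and 12 reads (0.852, 0.384 to 1.80). A control-only region of 26 reads (17.0 to 38.1), 11658 bp downstream, was 376 bp wide, the shortest width either list holds. Of 2147 regions with 23 to 29 control reads, 29.1% were control-only. The 5 progenitor markers with a shared peak at a gene end all had scaled ratios below 1. The interval of Lmo2 alone also lay below 1 (62 and 20 reads at the higher of its 2 regions, scaled ratio 0.504, 0.288 to 0.846). Over all 18481 shared regions, 9330 had a ratio below 1 and 8.47% an interval below 1. The part of these markers in the result at Mir142 was not tested.

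Across the 14 shared regions of the 5 loci, 2 had an interval below 1, the upstream regions of Mir144 and Mir142, and 1 above 1, that of Fam222b. The same was found at 8.47% (below) and 7.41% (above) of the 18481 shared regions. The counts at the loci are near these shares and are no result about the set, and the differences above are those of single regions. Ratios were below 1 at 7 and above 1 at 7 regions. The median log2 scaled ratio was −0.05, against 0.00 over all shared regions. The median heights of the 14 regions, 128 control and 78.5 knockout reads, were above those of all shared regions, 61 and 37. Single regions ranged from 22 to 534 control reads, and some lay below the median of all shared regions.

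**Figure D3:**
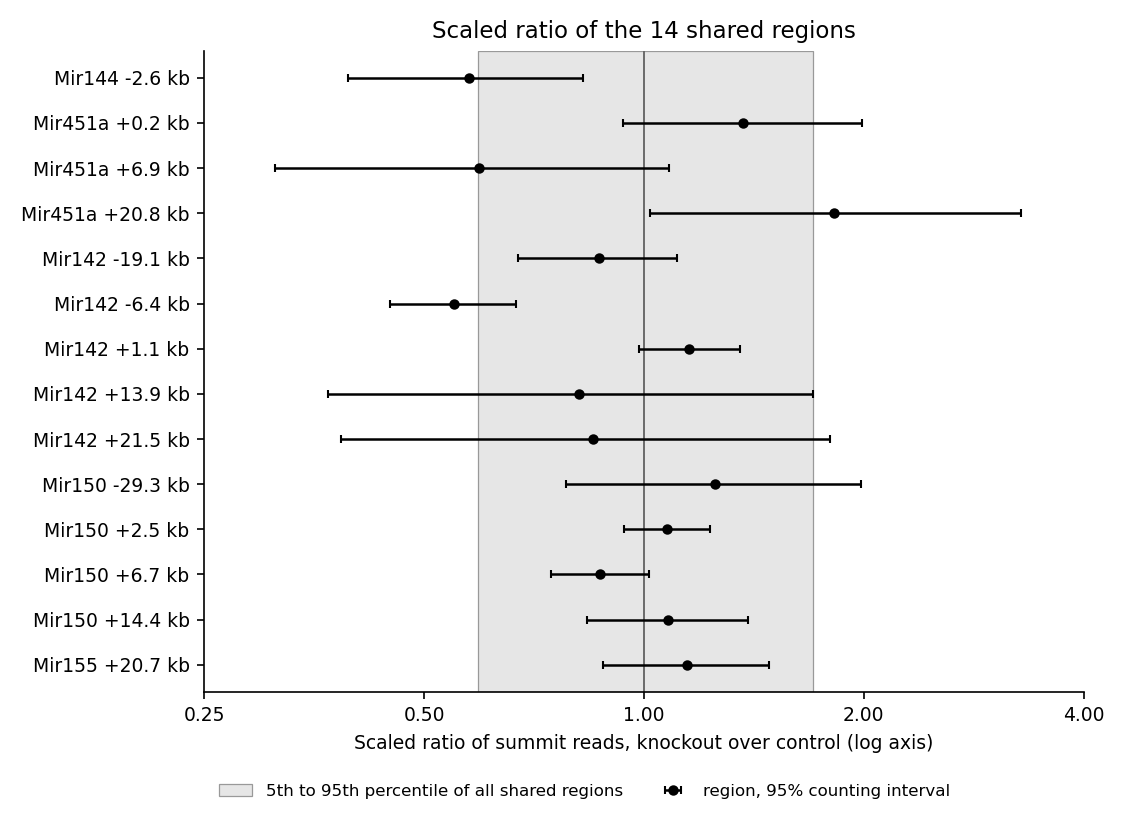
Scaled ratio of summit reads, knockout over control (x axis, log), of each of the 14 shared regions (y axis, named by the nearest microRNA and the gap to it in kb, minus for upstream), with 95% counting intervals and a grey band from the 5th to the 95th percentile of all shared regions. The regions upstream of Mir144 and Mir142 have intervals below 1, at 0.575 and 0.550, and the Fam222b region, 20827 bp from Mir451a, has one above 1.

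Around Mir150 (chromosome 7, 45121757 to 45121821, plus strand) the shared regions described here had scaled ratios whose intervals included 1. The region over the start site of Rpl13a, a ribosomal protein gene (45128566 to 45129459), had 466 and 260 reads (0.871, 0.746 to 1.02), with its summit at the same base in both lists. The region over a start site of Flt3l, which encodes the ligand of the progenitor receptor FLT3 (45136224 to 45137845), had 155 and 107 reads (1.08, 0.835 to 1.39). The region over the start site of Rcn3 (45091568 to 45092504) had 45 and 36 reads (1.25, 0.783 to 1.98). These shared regions thus lie over start sites of protein-coding genes.

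The regions near Mir150 that were in 1 list were of unequal strength. Inside Flt3l, 12758 bp downstream of Mir150 (45134579 to 45135060), a control-only region had 76 summit reads (59.9 to 95.1), the highest of the 9 one-list regions. At the relative depth of the knockout 48.7 reads would match it, and of 1389 regions with 68 to 84 control reads, 49 (3.53%) were control-only. It was 482 bp wide and rose 3.15-fold over a local background of 23.5 reads. The regions of like reads were not matched on background, whose median over all shared regions was 5.75 control reads. The control-only region closest to the hairpin, 3718 bp upstream and between genes (45117348 to 45118039), had 21 reads (13.0 to 32.1); of 2876 regions with 18 to 24 control reads, 40.8% were control-only. A knockout-only region inside Fcgrt had 8 reads (3.45 to 15.8), and 65.7% of 2291 regions with 7 to 9 knockout reads were knockout-only.

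At Mir155 (chromosome 16, 84714140 to 84714204, plus strand) both regions on the microRNA's side of the locus were in the knockout list alone, and both were weak. The one closest to the hairpin ended 128 bp before it, inside Mir155hg and 455 bp after its start site (84713478 to 84714012), and had 7 reads (2.81 to 14.4) with a −log10 q of 2.78. Of 1886 regions with 6 to 8 knockout reads, 74.6% were knockout-only. The other, 10762 bp upstream and between genes (84702838 to 84703378), had 13 reads (6.92 to 22.2), and 30.7% of 3266 regions with 11 to 15 knockout reads were knockout-only. Absence of peaks this low from the control list does not show that the sites were closed there. The strong region of the locus covered the start site of Mrpl39, a mitochondrial ribosomal protein gene, 20691 bp downstream (84734895 to 84736071), with 142 and 104 reads (1.14, 0.879 to 1.48) and its summit at the same base in both lists.

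At Mir223 (chromosome X, 96242817 to 96242926, plus strand) the control list held 2 weak regions and the knockout list none. The region 1710 bp downstream (96244636 to 96245520) had 16 summit reads (9.15 to 26.0), and the one 24479 bp upstream (96217923 to 96218338) had 13 (6.92 to 22.2). At the relative depth of the knockout library 10.2 and 8.32 reads would match them, and the lowest summit in the knockout list had 6 reads. Of 2964 regions with 14 to 18 control reads, 55.1% were control-only, and of 3580 with 11 to 15 control reads, 65.1%. A control peak of this height is thus commonly missing from the knockout list. These lists do not show whether accessibility at Mir223 differed. The libraries differed at Xist and at Y-linked genes, as given above. Over chromosome X as a whole, 22.1% of 665 regions were control-only, against 23.5% of autosomal regions, and the median log2 scaled ratio of its 457 shared regions was −0.04.

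**Figure D4:**
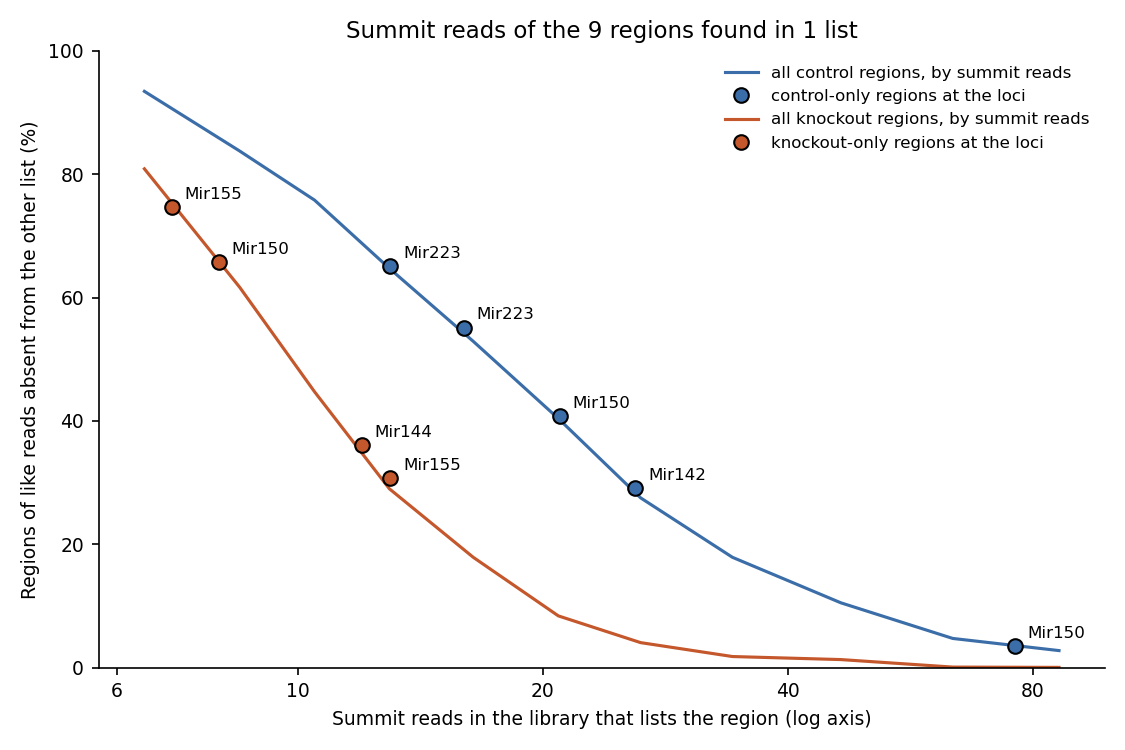
Share of regions absent from the other list (y axis, %) against summit reads in the library that lists them (x axis, log), as lines over all control and all knockout regions and as points for the 9 one-list regions at the loci, each placed at the share for its own reads. The Mir155 and Mir223 regions lie where such absence is common (30.7% to 74.6%). The 76-read region near Mir150 lies where it is rare (3.53%) among regions matched on summit reads alone.

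Of 15 genes that make or use microRNAs, 11 had a shared region within 1 kb of a gene end and 4 (Tarbp2, Ago3, Ago4 and Tnrc6a) had none. The median log2 scaled ratio of the 11 was 0.12, against 0.00 over all shared regions. Of their intervals, 2 lay below 1 and 1 above, against 8.47% and 7.41% over all shared regions. Ago2, which cuts the miR-451a hairpin, had 168 and 78 reads (0.725, 0.547 to 0.954) at the higher of its 2 regions. Xpo5, which exports hairpins from the nucleus, had 278 and 135 reads (0.758, 0.613 to 0.935), and Ddx17, a helicase that aids DROSHA, had 271 and 214 reads (1.23, 1.03 to 1.48). Drosha (1.13, 0.906 to 1.40), its partner Dgcr8 (0.963, 0.781 to 1.18) and Dicer1 (0.967, 0.631 to 1.46) had intervals that included 1.

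Of 11 genes commonly given as targets of the 6 microRNAs, 9 were shared at a gene end, and Mef2c, a miR-223 target, and Ywhaz, a miR-451a target, had none. The median log2 scaled ratio of the 9 was −0.18. Of their intervals, 1 lay below 1 and 2 above, against the same 8.47% and 7.41%, and nothing particular to targets is read from these few genes. Spi1, the PU.1 gene and a miR-155 target, had 30 and 38 reads (1.98, 1.19 to 3.31), and Cab39, a miR-451a target, had 55 and 56 (1.59, 1.08 to 2.35). Nfe2l2, the NRF2 gene and a miR-144 target, had 1166 and 658 reads (0.881, 0.800 to 0.971). Myb, a miR-150 target, had 50 and 25 reads (0.781, 0.463 to 1.29).

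Around 24 other microRNA genes of blood cells there were 47 further regions within 30 kb, 31 of them shared, 12 control-only and 4 knockout-only, where all regions had shares of 63.6%, 23.4% and 13.0%. The median log2 scaled ratio of the shared ones was 0.07, with 3 intervals below 1 and 2 above, against 8.47% and 7.41% over all shared regions. Mir486, which lies in the red cell ankyrin gene Ank1, had 1 shared and 3 control-only regions. The Mir17 cluster had 4 shared regions, Mir21a had 3 shared regions, and Mir181a-1, Mir221, Mir222, Mir10a and Mir146 had no region. Over all 1922 regions within 30 kb of any other microRNA gene, 69.2% were shared, 19.7% control-only and 11.1% knockout-only.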

How the data were processed

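ATAC-seq peak lists of 1 control and 1 knockout library were used as deposited, 1 list per sample, in mm10. Per the submitters' processing notes, the tools were MACS2 2.2.7.1, Bowtie2 2.4.4, Trimmomatic 0.39, deepTools 3.5.1 and Picard 2.26.2, with no roles or settings given; the treatment of duplicates, read shifting and blacklists is likewise not given in the sources used here. In the deposited lists, fold is the ratio of pileup plus 1 to background plus 1 at the summit. Deposited −log10 q-values and −log10 p-values set that pileup against that background, and the deposited score, 10 times the −log10 q, was not used. The whole-number pileup and background that gave both the fold and the −log10 p were recovered for each peak, with a relative misfit of at most 7.3e-06; the recovery was tested on simulated data. The 5 shared regions with a summit above 3000 reads were left out of ratios. Depth was scaled by the lowest background, 1.52 control and 0.971 knockout reads. Regions of like reads are those within about 10% of a region's summit reads. Where a marker, target or microRNA pathway gene had more than 1 region within 1 kb of its ends, the one with the most summit reads over both lists was used. Intervals are exact binomial, Poisson or conditional. Genes, microRNAs and promoters came from RefSeq tables of GRCm38.p6; strands were known for promoters and microRNAs only. Mir486 and Mir3107 were matched through the synonyms mir-486a and mir-486b, and Ly76 had no match. Every region within 30 kb was described except 1 near Mir150, which is counted but not reported here; genes named from other lists were chosen among the listed ones after their values were seen. The members and lists were chosen with earlier results of these data known. Computations ran in Python 3.11.15 with pandas 2.3.3, SciPy 1.17.1 and NumPy 2.4.6, and plots in matplotlib 3.10.9.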

Additional observations from a re-analysis of the deposited data

How the results depend on the processing

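Requiring an overlap of at least 50% of each peak left the counts at 14 shared, 5 control-only and 4 knockout-only regions. With a −log10 q of at least 5, knockout-only regions numbered 2, and with 22348 peaks from each list, control-only regions numbered 3. Within 10 kb there were 7 shared, 2 control-only and 1 knockout-only regions, and within 50 kb, a window chosen after seeing the data, 23 shared. Without the chromosome X locus, also chosen after seeing the data, 3 control-only regions were left. The median log2 scaled ratio of −0.05 was −0.04 with the depth taken from the median of shared regions and 0.08 from the ratio of deposited folds. Summing all summits of a region left each of the 14 ratios at its value and so tested nothing, and the other depth, 0.638, moved them all by the same small factor. With fold ratios 13 of 14 stayed inside their interval; the upstream Mir142 region, at 0.995 by folds, was the exception, where the local background was lower too. No paired analysis was possible because the 2 libraries share no replicate number. Low reads limit the one-list regions: 5 of the 9 had 13 reads or fewer, and 4 of these 5 were knockout-only.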
